A study of Mus musculus with 8 samples.

Results

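Integrins are cell surface receptors built of 1 alpha and 1 beta chain, and laminins are the trimers of 1 alpha, 1 beta and 1 gamma chain that they bind in basement membranes, with the nidogens Nid1 and Nid2 as linkers between laminin and the collagen IV network. The genes described here are those whose symbol in the probe table is Itga, Itgb, Lama, Lamb or Lamc with a number, and Nid1 and Nid2, without genes of integrin-binding proteins. They are 29 of the 16590 genes named on the array, with 39 of its 25697 probes, namely 10 integrin alpha, 9 integrin beta, 3 laminin alpha, 3 laminin beta, 2 laminin gamma and 2 nidogen genes. Itga8, Itga10, Lama3 and Lama5 were not analysed here. Integrin alpha genes named by a letter, such as Itgav, are outside this choice and are given with the partner genes. The comparison asks which of these subunits change in fibroblasts when DNA methylation is lowered by an inhibitor.

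Total RNA came from mouse embryonic fibroblasts of the genotype Trp53-/- Dnmt1+/+, that is, without the tumour suppressor p53 and with the maintenance DNA methyltransferase intact, and of unknown strain background. Both groups share this genotype and differ in a culture of 72 h with the methylation inhibitor 5-aza-dC or with the solvent DMSO (control). The inhibitor is an analogue of deoxycytidine that after its incorporation into DNA binds the methyltransferases covalently. The labels give 1 µM 5-aza-dC, while the study's methods give another dose, and which one holds for these arrays is not settled here. Each group held 2 biological replicates on 2 technical arrays each (8 arrays in all), so that n = 2 per group. The labels do not trace the replicates to separate cultures or embryos. The p-values set a difference against the spread between these replicates, moderated by the spread of the other genes. Arrays had mean signals between 295 and 376 intensity units, and detected between 50% and 52.9% of their probes. Normalised log2 levels of all probes correlated with r = 0.993 to 0.998 within groups and 0.957 to 0.963 between groups, across probes, which are not independent replicates.

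In fibroblasts, integrins tie the actin cytoskeleton through talin and kindlin to fibronectin, collagen and laminin, and which alpha chain pairs with the common beta1 chain sets the ligand. The chains Itga1, Itga2 and Itga11 make receptors for collagens, Itga3, Itga6 and Itga7 make receptors for laminins, and Itga5, Itga2b and Itgav make receptors for proteins with the peptide motif Arg-Gly-Asp (RGD). Laminin trimers with the Lama2 chain are typical of muscle and mesenchyme, and the trimer with the Lamb3 chain is typical of the basement membrane under stratified epithelium. Laminin networks are needed for basement membranes to assemble.

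After 5-aza-dC, the 3 laminin-binding alpha chains on the array rose, with the largest rise in Itga6. The call of Itga3, which is among them, ended with either control replicate left out. The collagen receptor chain Itga11 fell 14.6-fold, and Itga1, detected on 1 of 4 5-aza-dC arrays, fell by a measured 2.07-fold. Nid2 fell 6.03-fold, and the laminin chains Lama2 and Lamb2 fell 2.98-fold and 2.11-fold. Itgb7, Lamb3, Itga2 and Itgb6, which no control array detected, were detected on every 5-aza-dC array. Of the 29 genes, 23 passed the detection filter and were tested. The threshold for a call was an adjusted p under 0.05 over the 9502 genes tested (limma). By it 9 of the 23 rose, 7 fell and 7 did not pass, so that 69.6% of them were called, where 52.0% of all genes tested were called (26.3% higher and 25.7% lower). Measured differences of at least 1 on the log2 scale were called for 4 higher and 6 lower genes, or 17.4% and 26.1% of the 23, against 7.50% and 7.98% of all genes tested. Of the 4 higher genes, Itgb7, Lamb3 and Itga2 were detected on no control array and passed the filter through the 5-aza-dC arrays only. The rise of Itga2 is bounded only at 1.88-fold or more. The median log2 fold change (5-aza-dC minus control) of the 23 was 0.10 and that of all genes tested was -0.02. Through the 5-aza-dC arrays alone, 4 of the 23 (17.4%) were kept in the test, against 551 of the 9502 genes tested. Through the control arrays alone, 1 of the 23 (Itgb8) was kept, against 237 of the 9502. In such genes the filter itself favours a difference, and these 5 are all among those called, so the shares called are not independent of the filter. Between replicates, 19 of the 23 (82.6%) did not overlap between groups, as did 76.5% of all genes tested.

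**Figure D1:**
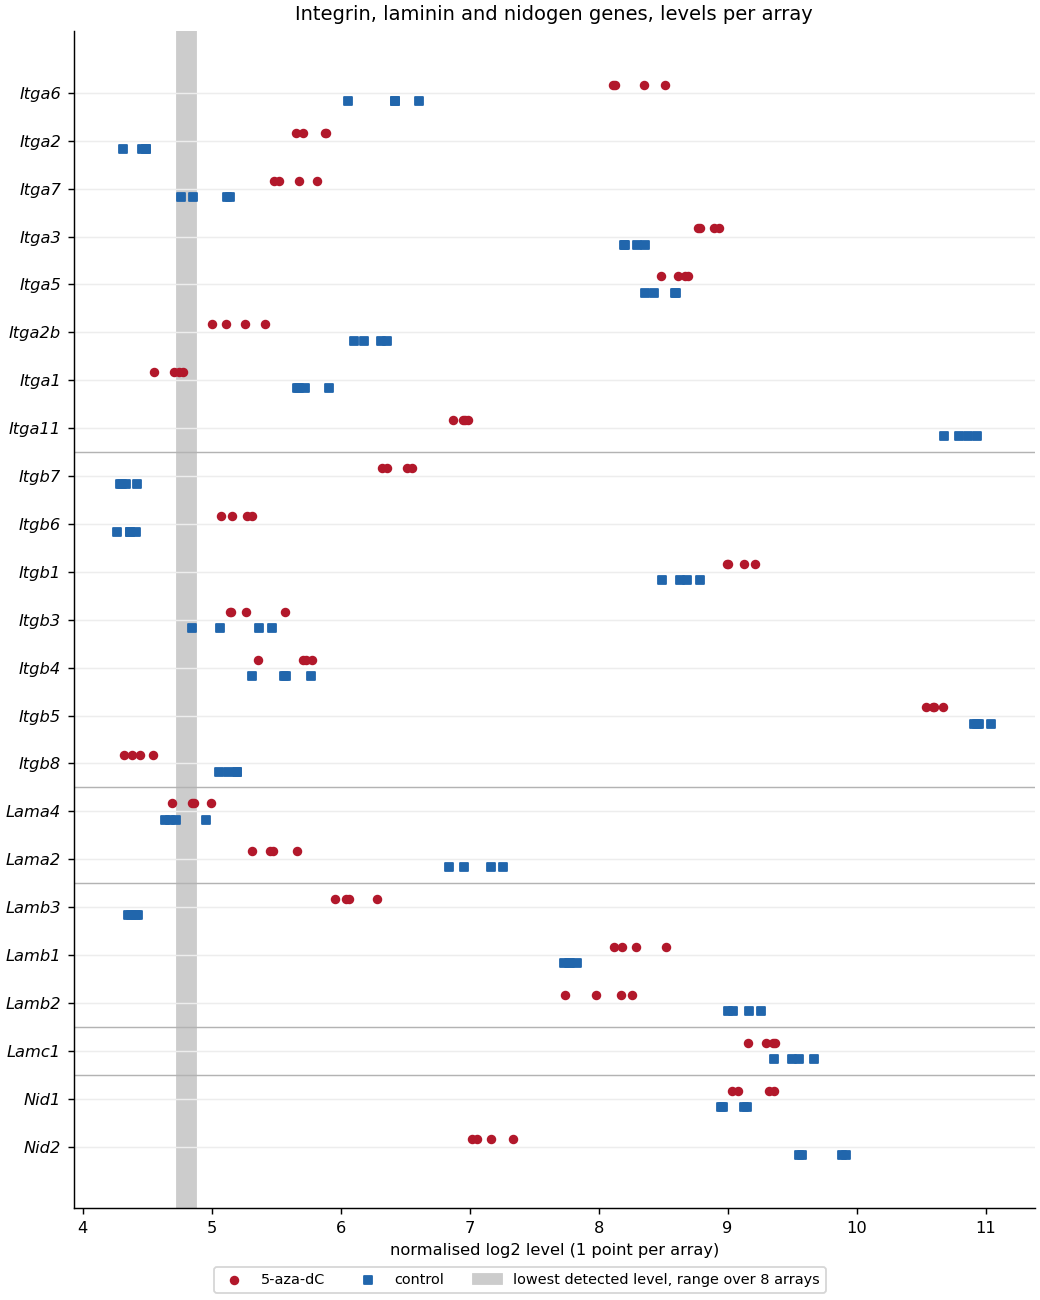
Normalised log2 level (horizontal axis) of the 23 tested integrin, laminin and nidogen genes, 1 point per array, with 5-aza-dC above control for each gene and families parted by lines. The grey band is the range over arrays of the lowest level of any detected probe, 4.73 to 4.88. Itga11 and Nid2 stand far to the left of their control arrays, and Itgb7, Itgb6, Lamb3 and Itga2 lie below the band in control only.

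The promoter windows of 4 of these genes are shown because Itga11 had the largest fall and Itgb7, Lamb3 and Itga2 rose and were detected on no control array. The agent acts on DNA methylation, whose main site in mammals is the dinucleotide CG, so each CG stands in capitals. The windows hold 250 bases before and 50 after a RefSeq start of transcription (build GRCm38.p6), 5′ to 3′ on the gene's strand. They lie at chr9:62677605-62677904 (+) for Itga11, chr15:102231886-102232185 (-) for Itgb7, chr1:193301744-193302043 (+) for the first of the 2 windows of Lamb3 and chr13:114932051-114932350 (-) for Itga2.
Itga11: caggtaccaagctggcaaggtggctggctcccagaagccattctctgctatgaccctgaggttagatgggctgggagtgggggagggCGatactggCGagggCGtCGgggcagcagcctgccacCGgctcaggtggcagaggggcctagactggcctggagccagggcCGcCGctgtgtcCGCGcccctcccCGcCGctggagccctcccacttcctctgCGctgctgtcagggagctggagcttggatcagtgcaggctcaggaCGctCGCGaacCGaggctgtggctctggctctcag
Itgb7: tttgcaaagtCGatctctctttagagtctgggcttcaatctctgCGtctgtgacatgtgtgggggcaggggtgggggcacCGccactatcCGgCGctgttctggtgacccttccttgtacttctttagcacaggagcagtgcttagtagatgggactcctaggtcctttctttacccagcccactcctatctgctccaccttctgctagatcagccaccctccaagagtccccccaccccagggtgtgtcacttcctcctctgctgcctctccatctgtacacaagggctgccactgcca
Lamb3: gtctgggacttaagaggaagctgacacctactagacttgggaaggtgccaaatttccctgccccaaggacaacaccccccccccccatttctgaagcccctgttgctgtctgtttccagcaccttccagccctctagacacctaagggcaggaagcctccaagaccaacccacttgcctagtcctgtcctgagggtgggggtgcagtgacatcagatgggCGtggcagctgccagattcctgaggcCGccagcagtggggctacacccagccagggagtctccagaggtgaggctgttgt
Itga2: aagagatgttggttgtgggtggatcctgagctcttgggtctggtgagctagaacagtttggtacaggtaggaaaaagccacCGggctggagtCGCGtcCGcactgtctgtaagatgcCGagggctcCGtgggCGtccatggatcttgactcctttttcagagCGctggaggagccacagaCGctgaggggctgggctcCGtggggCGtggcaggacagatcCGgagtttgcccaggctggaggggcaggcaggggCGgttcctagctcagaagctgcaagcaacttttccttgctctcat

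The windows printed hold 16 CG for Itga11, 5 for Itgb7, 2 for Lamb3 and 13 for Itga2. Over all 32851 windows of the table the median was 7 CG, with quartiles of 3 and 20. The table held windows for 19 of the 29 genes, and Nid2, Itga6 and Lamc1 are among those it did not list. Among called genes with a single window, Lama2 with 1 CG and Lamb2 with 4 had the fewest and were lower in 5-aza-dC, and Itgb1 with 27 had the most and was higher. The windows of Itgb6, also higher, held 3 and 12. Itga1 and Itga2 are neighbours on chromosome 13, parted by a lncRNA gene, with 12 and 13 CG in their windows, and were called in opposite directions. Methylation was not measured on these arrays, and the counts describe the sequence only.

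**Figure D2:**
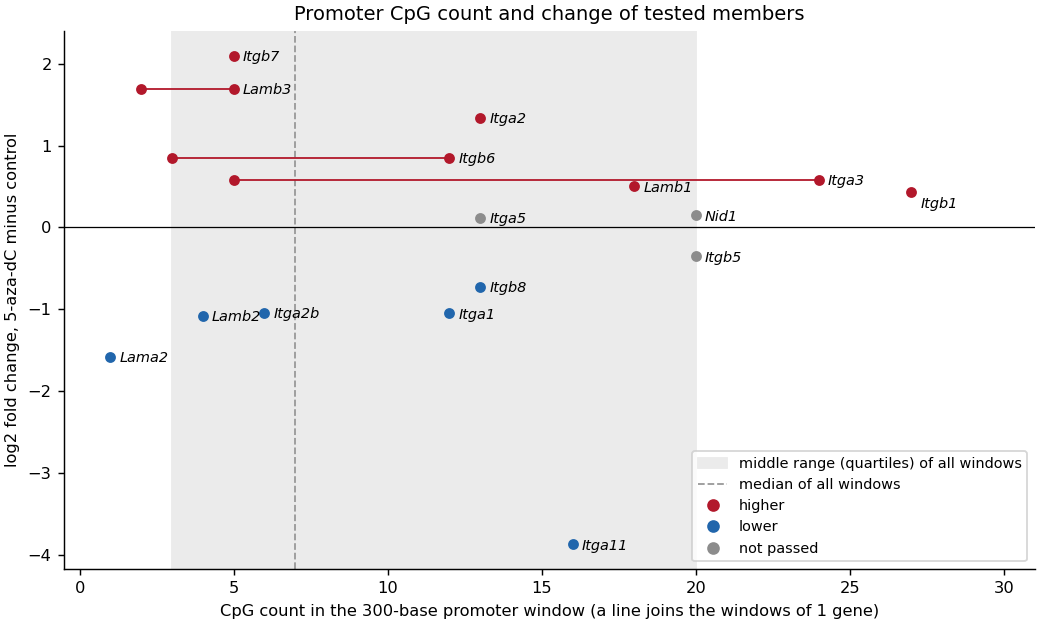
Number of CG dinucleotides in the 300-base promoter window (horizontal axis) and log2 fold change, 5-aza-dC minus control (vertical axis), of the tested genes with a window. A line joins the windows of 1 gene, the dashed line is the median of all windows (7) and the shaded range their quartiles (3 to 20). Genes called higher and genes called lower both occur below and above the median.

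Among the collagen-binding alpha chains, Itga11, the receptor chain by which fibroblasts hold fibrillar collagen, had normalised log2 levels of 6.99, 6.96, 6.95 and 6.87 on the 5-aza-dC arrays, against 10.68, 10.79, 10.86 and 10.93 on the control arrays. All 5-aza-dC arrays lay below all control arrays by more than 3 on the log2 scale, and the gene stayed detected on every array. The log2 fold change was -3.87 ± 0.11 (SE, n = 2 per group, limma adjusted p = 2.39e-05). The other kept probes of Itga11 fell as well, with log2 fold changes of -3.44 and -1.29, and the probe with the smallest fall was detected on no 5-aza-dC array.

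Itga1, which with Itgb1 makes a receptor of collagen IV and other collagens, had levels of 4.71, 4.78, 4.75 and 4.55 on the 5-aza-dC arrays, against 5.68, 5.91, 5.73 and 5.67 on the control arrays. The groups did not overlap, and 1 of 4 5-aza-dC arrays and 4 of 4 control arrays detected the probe. The log2 fold change was -1.05 ± 0.10 (SE, n = 2 per group, limma adjusted p = 5.40e-04). Its size depended on the processing, at -0.55 with a background offset of 50 and -0.58 with the deposited normalised values. Itga2, the collagen receptor chain of platelets and epithelia, had levels of 5.88, 5.88, 5.71 and 5.65 on the 5-aza-dC arrays, against 4.32, 4.50, 4.46 and 4.50 on the control arrays. Its change ran the other way, at least 1.88-fold higher, with a measured log2 fold change of 1.34 ± 0.11 (SE, n = 2 per group, limma adjusted p = 3.38e-04). Among the collagen-binding chains, 2 thus fell and 1 rose.

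The 3 laminin-binding alpha chains on the array were all called higher, where 26.3% of all genes tested were. Itga6, the alpha chain of hemidesmosomes and of many stem cells, had levels of 8.35, 8.52, 8.13 and 8.11 on the 5-aza-dC arrays, against 6.05, 6.42, 6.61 and 6.42 on the control arrays. Every 5-aza-dC array lay above every control array, and all detected the probe. The log2 fold change was 1.90 ± 0.16 (SE, n = 2 per group, limma adjusted p = 3.55e-04), a 3.73-fold rise. Itga7, the laminin receptor chain of skeletal muscle, had levels of 5.68, 5.52, 5.82 and 5.48 on the 5-aza-dC arrays, against 4.85, 4.77, 5.14 and 5.12 on the control arrays, with detection on 4 of 4 5-aza-dC and 2 of 4 control arrays. Its log2 fold change was 0.65 ± 0.13 (SE, n = 2 per group, limma adjusted p = 0.00818). Itga3, a receptor chain for laminins of epithelial basement membranes, had levels of 8.89, 8.93, 8.79 and 8.77 on the 5-aza-dC arrays, against 8.36, 8.21, 8.20 and 8.30 on the control arrays. All 5-aza-dC arrays lay above all control arrays, and the log2 fold change was 0.58 ± 0.11 (SE, n = 2 per group, limma adjusted p = 0.00608). Itga3 lost its call without control replicate 1 (adjusted p = 0.0593) and likewise without replicate 2 of the controls (0.0712).

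Among the RGD-binding chains, Itga2b, the chain of the platelet fibrinogen receptor, had levels of 5.11, 5.00, 5.42 and 5.26 on the 5-aza-dC arrays, against 6.31, 6.36, 6.18 and 6.10 on the control arrays. The log2 fold change was -1.04 ± 0.14 (SE, n = 2 per group, limma adjusted p = 0.00171) at the probe used and -0.59 at the other kept probe. Of the 5 markers of megakaryocytes and platelets on the array, 1 to 2 were detected per 5-aza-dC array and 1 per control array, with summed levels of 117 to 135 and 130 to 136 units, and Gp1bb was undetected throughout. Of the 3 tested, Ppbp fell by at least 1.61-fold, while Pf4 (log2 fold change 0.42) and Gp9 (0.11) did not pass. Itga5, the alpha chain of the fibronectin receptor, had levels of 8.69, 8.67, 8.61 and 8.48 on the 5-aza-dC arrays, against 8.36, 8.43, 8.59 and 8.60 on the control arrays. The groups overlapped, and Itga5 missed the threshold at a log2 fold change of 0.12 ± 0.12 (SE, n = 2 per group, limma adjusted p = 0.447) and of 0.10 at the other kept probe. Itga4 and Itga9, receptor chains for fibronectin, tenascin-C and VCAM-1, were detected on 0 of 8 arrays and were not tested.

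Among the beta chains, Itgb1, the partner of most alpha chains, had levels of 9.0, 9.0, 9.21 and 9.12 on the 5-aza-dC arrays, against 8.68, 8.79, 8.49 and 8.63 on the control arrays. The groups did not overlap, and the log2 fold change was 0.43 ± 0.12 (SE, n = 2 per group, limma adjusted p = 0.0287), with 0.25 at the other kept probe. This call ended with arrays scaled to their median (adjusted p = 0.104), with replicate numbers blocked (0.0780), and without control replicate 1 (0.103) or 2 (0.273). Itgb5, a beta chain of vitronectin receptors, had levels of 10.60, 10.67, 10.54 and 10.59 on the 5-aza-dC arrays, against 10.95, 10.91, 11.04 and 10.93 on the control arrays. Its log2 fold change of -0.35 ± 0.12 (SE, n = 2 per group, limma adjusted p = 0.0524) missed the threshold, but passed with arrays scaled to their median (adjusted p = 0.0180), with technical arrays entered singly (0.00381) and without 5-aza-dC replicate 1 (0.0291).

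Itgb7, which pairs with Itga4 or Itgae on lymphocytes, had levels of 6.51, 6.32, 6.36 and 6.55 on the 5-aza-dC arrays, against 4.42, 4.29, 4.30 and 4.33 on the control arrays. The probe was detected on 4 of 4 5-aza-dC and 0 of 4 control arrays, and the rise was at least 2.96-fold, with a measured log2 fold change of 2.10 ± 0.09 (SE, n = 2 per group, limma adjusted p = 5.73e-05). It had the largest measured rise of the 23 genes. Itgb2, the beta chain common to leukocyte integrins, and its relative Itgb2l were detected on 0 of 8 arrays. Of the 10 leukocyte markers on the array, 2 to 3 were detected per 5-aza-dC array and 2 per control array, with summed levels of 275 to 287 and 259 to 276 units. Ptprc, the common leukocyte antigen CD45, and Tyrobp, Fcer1g, Cd52, Adgre1 and Lyz2 were undetected on every array. Cd53 was detected on 4 of 4 5-aza-dC and 0 of 4 control arrays, with at least a 1.39-fold rise. Of the other tested leukocyte markers, Laptm5, detected on 0 of 4 control arrays, rose by at least 1.06-fold, a bound close to no change, Cd3e, detected on 0 of 4 5-aza-dC arrays, fell by at least 1.72-fold, and Coro1a did not pass.

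Itgb6, an epithelial chain that with Itgav activates latent TGF-beta, had levels of 5.31, 5.27, 5.07 and 5.16 on the 5-aza-dC arrays, against 4.42, 4.37, 4.27 and 4.37 on the control arrays. It rose at least 1.26-fold, with a measured log2 fold change of 0.85 ± 0.10 (SE, n = 2 per group, limma adjusted p = 0.0013) and of 0.45 at the other kept probe, while its remaining probe was detected on 0 of 8 arrays. Itgb8, the other chain known to activate latent TGF-beta with Itgav, had levels of 4.44, 4.54, 4.32 and 4.38 on the 5-aza-dC arrays, against 5.06, 5.13, 5.20 and 5.20 on the control arrays. It fell by at least 1.29-fold, and its measured log2 fold change was -0.72 ± 0.10 (SE, n = 2 per group, limma adjusted p = 0.00209). Itgb4, the partner of Itga6 in hemidesmosomes, missed the threshold at a log2 fold change of 0.09 ± 0.13 (SE, n = 2 per group, limma adjusted p = 0.588). Itgb3, the beta chain of vitronectin and fibrinogen receptors, missed it at a log2 fold change of 0.10 ± 0.11 (SE, n = 2 per group, limma adjusted p = 0.493), and for both genes the groups overlapped.

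**Figure D3:**
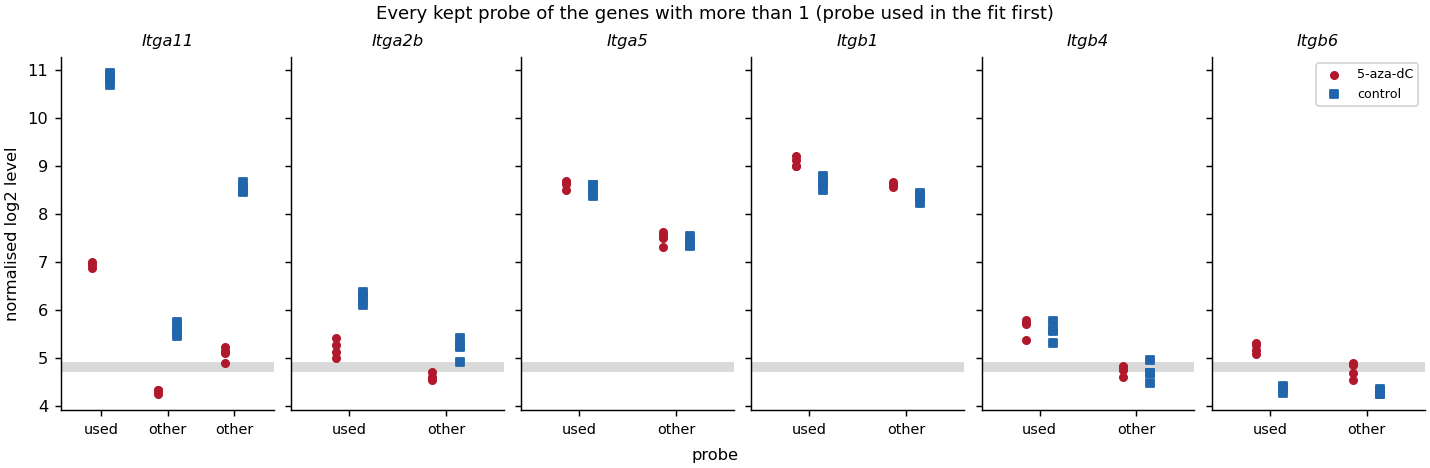
Normalised log2 level (vertical axis) at each kept probe of the 6 genes that have several, 1 point per array, with 5-aza-dC left of control and the probe used in the fit first. The grey band is the range over arrays of the lowest detected level. The 3 probes of Itga11 all lie lower in 5-aza-dC, with log2 fold changes of -3.87, -1.29 and -3.44, while both probes of Itga5 overlap between groups.

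Known integrin pairs were then read from the detection of their chains, as a description of transcripts and not of protein on the cell surface. Per array, 51.2% to 52.9% of all probes were detected in 5-aza-dC and 50% to 50.2% in control. Many pairs share a chain, so their counts are not independent. Of 21 pairs with both chains on the array, 13 had both detected on all 4 5-aza-dC arrays and 9 on all 4 control arrays, 7 of them in both groups. These 7 were Itgb1 with Itga3, Itga5, Itga6, Itga11 or Itgav, Itga6 with Itgb4, and Itgav with Itgb5. Another 6 pairs met this in 5-aza-dC only, namely Itgb1 with Itga2 or Itga7, Itgav with Itgb3 or Itgb6, Itga2b with Itgb3, and Itgae with Itgb7. Itgb3 was detected on 3 of 4 control arrays, so its pairs missed the limit by 1 array, and its partner Itga2b was lower in 5-aza-dC. Itga7 and Itgae were each detected on 2 of 4 control arrays. Itga1 with Itgb1 and Itgav with Itgb8 met the limit in control only.

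Among the laminin alpha chains, Lama2, the chain of muscle and mesenchymal laminins, had levels of 5.32, 5.46, 5.47 and 5.67 on the 5-aza-dC arrays, against 6.84, 6.95, 7.26 and 7.17 on the control arrays. Every array detected it and the groups did not overlap. The log2 fold change was -1.58 ± 0.14 (SE, n = 2 per group, limma adjusted p = 4.97e-04). Lama4, a chain of vessel and muscle laminins, was detected on 3 of 4 5-aza-dC and 1 of 4 control arrays, and missed the threshold at a log2 fold change of 0.10 ± 0.10 (SE, n = 2 per group, limma adjusted p = 0.445). Lama1, the alpha chain of the earliest embryonic basement membranes, was detected on 0 of 8 arrays.

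The laminin beta chains moved in different directions. Lamb3, a chain of the laminin under epidermal and other stratified epithelium, had levels of 6.29, 5.96, 6.04 and 6.06 on the 5-aza-dC arrays, against 4.35, 4.42, 4.43 and 4.37 on the control arrays. It was detected on 4 of 4 5-aza-dC and 0 of 4 control arrays and rose at least 2.32-fold, with a measured log2 fold change of 1.69 ± 0.09 (SE, n = 2 per group, limma adjusted p = 1.01e-04). Lamb2, a chain of laminins at the neuromuscular junction and in the kidney filter, had levels of 7.98, 7.74, 8.26 and 8.17 on the 5-aza-dC arrays, against 9.04, 9.0, 9.26 and 9.16 on the control arrays, and its log2 fold change was -1.08 ± 0.15 (SE, n = 2 per group, limma adjusted p = 0.00234). Lamb1, the more widespread beta chain, had levels of 8.29, 8.52, 8.12 and 8.18 on the 5-aza-dC arrays, against 7.78, 7.77, 7.73 and 7.83 on the control arrays, and its log2 fold change was 0.50 ± 0.12 (SE, n = 2 per group, limma adjusted p = 0.0171). Lamb1 lost its call without control replicate 1 (adjusted p = 0.111) or replicate 2 of the controls (0.101), while Lamb2 and Lamb3 kept theirs.

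Lamc1, the gamma chain of most laminins, had levels of 9.37, 9.35, 9.16 and 9.30 on the 5-aza-dC arrays, against 9.36, 9.50, 9.67 and 9.55 on the control arrays. Arrays of the groups overlapped though replicate means did not, and Lamc1 missed the threshold at a log2 fold change of -0.23 ± 0.12 (SE, n = 2 per group, limma adjusted p = 0.173), but with arrays scaled to their median it was called lower (adjusted p = 0.0364). Lamc3 was detected on 0 of 8 arrays. Of 8 known laminin trimers with all chains on the array, 2 had all chains detected on every array of both groups, and both hold Lama2 and Lamc1, with Lamb1 or with Lamb2. In these the alpha chain was lower in 5-aza-dC, the gamma chain did not pass, and the beta chain was higher (Lamb1) or lower (Lamb2).

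The nidogens differed from each other. Nid2 had levels of 7.33, 7.17, 7.05 and 7.02 on the 5-aza-dC arrays, against 9.57, 9.55, 9.89 and 9.92 on the control arrays. All arrays detected it, all 5-aza-dC arrays lay below all control arrays, and the log2 fold change was -2.59 ± 0.15 (SE, n = 2 per group, limma adjusted p = 1.28e-04). Nid1 had levels of 9.36, 9.32, 9.03 and 9.08 on the 5-aza-dC arrays, against 8.95, 8.96, 9.13 and 9.15 on the control arrays. Its groups overlapped, and it missed the threshold at a log2 fold change of 0.15 ± 0.14 (SE, n = 2 per group, limma adjusted p = 0.42).

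**Figure D4:**
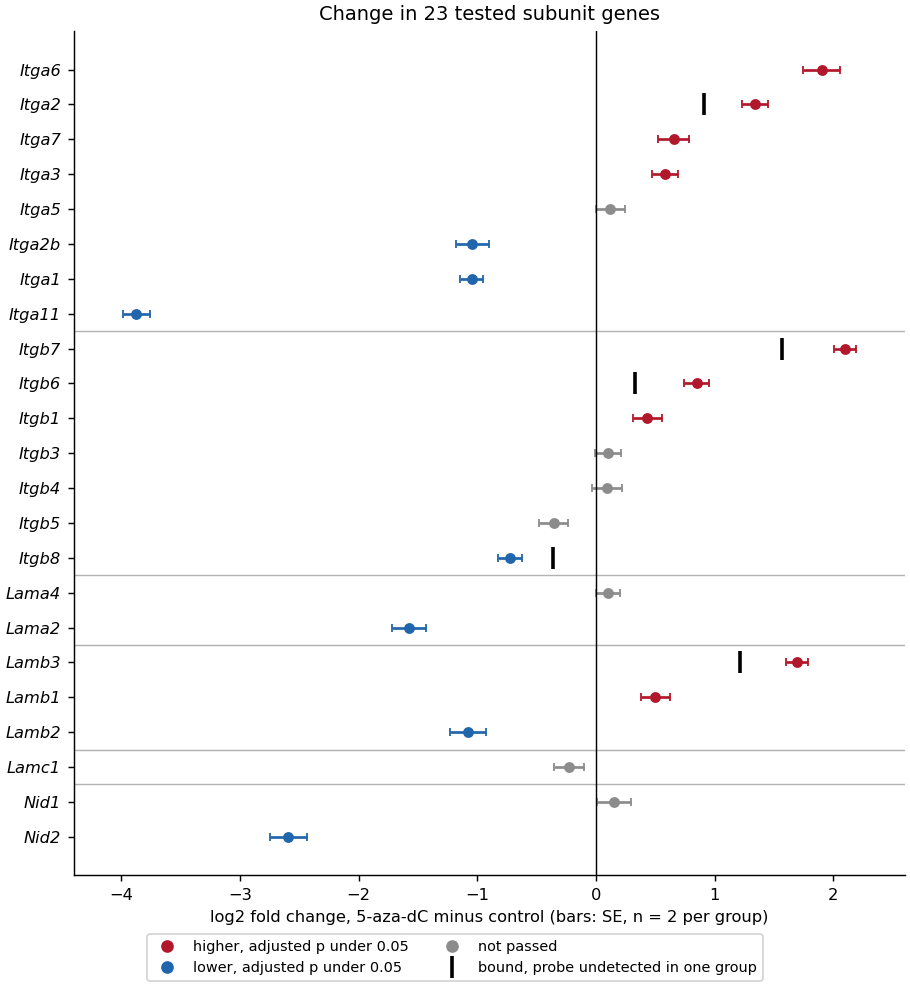
Log2 fold change, 5-aza-dC minus control (horizontal axis), of the 23 tested genes by family, with bars for the SE (n = 2 per group). Black ticks give the bound for the 5 genes whose probe no array of 1 group detected. Itga11 at -3.87 and Nid2 at -2.59 had the largest falls, and Itgb7 at 2.10 and Itga6 at 1.90 the largest measured rises.

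Epithelial and fibroblast markers also differed between the groups, and their part in the values above was not tested. Of the 9 epithelial markers on the array, 6 to 7 were detected per 5-aza-dC array and 0 to 2 per control array. Their summed levels were 1870 to 1970 and 203 to 218 units. Lamb3, Itgb6, Itga6, Itga3 and Itga2 differed in the same direction, while Itgb4, the partner of Itga6 in hemidesmosomes, did not pass (log2 fold change 0.09, limma adjusted p = 0.588). Krt5 and Esrp1 were undetected on every array, and Cdh1 missed the threshold (0.07, adjusted p = 0.651). All 9 fibroblast markers on the array were detected on every array, with summed levels of 19400 to 23500 units in 5-aza-dC and 37300 to 44400 in control. Of these, 6 fell, among them Pdgfrb (log2 fold change -2.38) and Pdgfra (-1.69), which mark mesenchymal cells. Thy1 rose (0.42, limma adjusted p = 0.0458). Vim, the intermediate filament of mesenchyme, did not pass (0.15, adjusted p = 0.630), nor did S100a4, with a measured rise (1.10, adjusted p = 0.0997). Of 7 endothelial markers, 1 was detected per 5-aza-dC array and 0 to 1 per control array, with summed levels of 177 to 185 and 164 to 178 units. Only Esam was tested, and it rose (log2 fold change 0.76, limma adjusted p = 0.00214), with detection on 4 of 4 5-aza-dC and 1 of 4 control arrays. Pecam1 and Vwf had detection in control only and did not pass the filter, and Cdh5, Kdr, Tek and Tie1 were undetected throughout. In total RNA, fewer cells of a type and less RNA per cell cannot be told apart.

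The partner genes were read from the same fit. Of the letter-named alpha chains, Itgav, the chain of vitronectin and latent TGF-beta receptors, rose, with a log2 fold change of 0.60 ± 0.19 (SE, n = 2 per group, limma adjusted p = 0.0380). Itgae, the chain that binds E-cadherin, did not pass (0.37, adjusted p = 0.0511, and down to -0.12 at its other kept probes), and Itgad, Itgam and Itgax were undetected on every array.

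Among the other basement membrane genes, 10 fell, 4 rose and 2 did not pass of the 16 tested (22 on the array). This made 87.5% called, where 52.0% of all genes tested were called (26.3% higher and 25.7% lower), and their median log2 fold change was -0.56. Col4a6 (log2 fold change -1.85) and Col4a5 (-1.71), chains of the collagen IV network, fell, and Tinag, a basement membrane glycoprotein of kidney tubules, fell by at least 2.43-fold. Smoc1, a calcium-binding basement membrane protein, rose by 2.37 on the log2 scale, with detection on 1 of 4 control arrays, and Col18a1, the source of endostatin, rose by 1.5 (0.99 at its other kept probe). Hspg2, the proteoglycan perlecan that nidogens link to laminin, fell (-1.14).

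Of other laminin receptors, tetraspanin partners and dystroglycan glycosylation genes, 6 rose, 2 fell and 10 did not pass among the 18 tested of 21 on the array. The share called, 44.4%, was below the 52.0% of all genes tested, and the median log2 fold change was 0.01. Sdc3 (log2 fold change 1.18), a heparan sulfate proteoglycan, Cd151 (0.97), the tetraspanin that binds laminin receptors with Itga3 and Itga6, Cd9 (0.80), another tetraspanin, and Mcam (0.77), a receptor of Lama4 laminins, rose. Sdc2 fell (-0.74). Dag1, the gene of dystroglycan, which binds Lama2 laminins, did not pass (-0.33, adjusted p = 0.0906).

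Of the integrin ligands other than laminins, 7 rose, 7 fell and 5 did not pass among the 19 tested of 26 on the array. This made 73.7% called, against 52.0% of all genes tested, and the median log2 fold change was 0.07. Postn (log2 fold change -3.22), Col1a2 (-2.71) and Col1a1 (-2.52), matrix proteins that fibroblasts bind through integrins, fell, and the matricellular genes Ccn2 (2.29) and Thbs2 (1.72) rose. Col1a1 and Col1a2 encode the collagen that Itga11 binds, and all 3 genes were lower in 5-aza-dC.

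Inside the cell, most focal adhesion genes did not pass. Among the 25 tested of 32 on the array, 8 fell, 2 rose and 15 did not pass. The share called, 40.0%, was below the 52.0% of all genes tested, 25.7% of all genes tested were lower, and the median log2 fold change was -0.26. Lims2 (log2 fold change -1.30) and Lims1 (-0.69), the PINCH adaptors that bind integrin-linked kinase, fell, as did Fermt2 (-0.73), a kindlin that activates integrins, Zyx (-0.74), a protein of mature focal adhesions, and Sharpin (-0.80), an inhibitor of Itgb1 activation. Tln1, the talin that links beta chains to actin, did not pass (-0.07, adjusted p = 0.734), nor did Ilk (-0.13, adjusted p = 0.448). Over all partner genes, the letter-named alpha chains included, 47 of the 80 tested were called, against 4941 of all 9502 genes tested (52.0%). Both counts were lower with either control replicate left out.

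**Figure D5:**
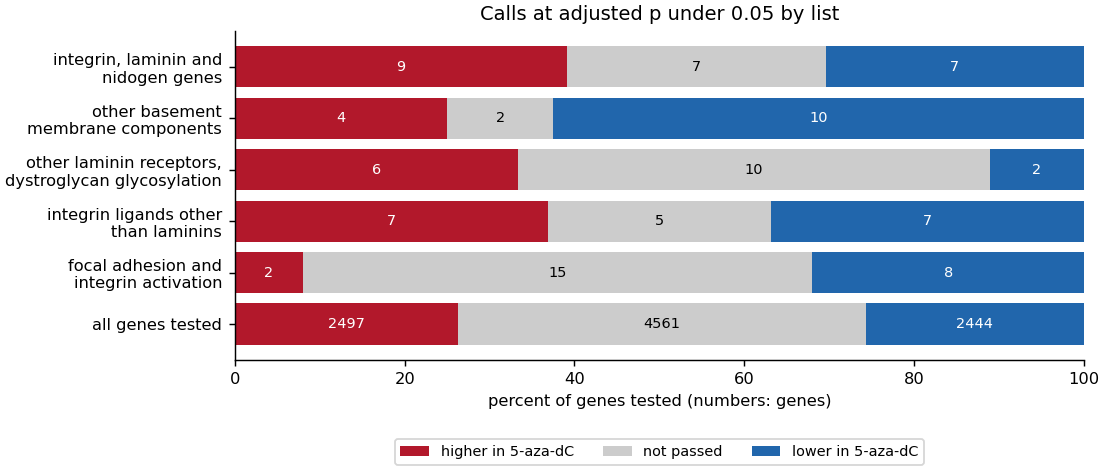
Share of tested genes (horizontal axis, percent) called higher in 5-aza-dC (left), not passed (middle) and called lower (right) at an adjusted p under 0.05, for the integrin, laminin and nidogen genes, 4 partner lists and all genes tested. Numbers in the bars are genes. The focal adhesion list had 15 of 25 not passed, and the other basement membrane genes had 10 of 16 lower.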

How the data were processed

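Integrin, laminin and nidogen transcripts were read from 8 Illumina bead arrays. Per the file headers, each probe has a bead signal, a linear intensity, and a detection p-value. A second deposited table holds intensity values that the authors processed with lumi (background subtraction, variance-stabilising transformation and robust spline normalisation) and served as an alternative. There, the values of 1 array (the first of 5-aza-dC replicate 1) equal its bead signal (0 probes differing). Whether that array was left unprocessed was not tested. The lumi version and a genome build are not given in the sources used here.

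Signals were background-corrected and quantile-normalised with neqc (offset 16) in R 4.3.3 with limma 3.58.1, turning the deposited intensity into log2 levels. Probes with a detection p under 0.05 on at least 2 arrays were kept (14308 of 25697), and each gene was tested at its brightest kept probe. "Detected" means a detection p under 0.05. Symbols came from the probe table, updated through RefSeq by Entrez identifier for 23962 probes, by accession for 9, with 7 unchanged and 1719 without a symbol. The mean of the technical arrays of each replicate entered a limma fit of 5-aza-dC against control with a variance trend (prior degrees of freedom 3.82, residual 2), two-sided, with Benjamini-Hochberg adjustment over 9502 genes. For a probe undetected on every array of a group, "at least" gives the fold with that group raised to the lowest detected level of each array. Summed marker levels add linear normalised levels at each gene's brightest probe. On simulated log2 values of 9502 genes for this comparison, 50 genes were changed at each fold size. The fit found 1 of them at 1.25-fold, 8 at 1.5-fold, 38 at 2-fold and 48 at 4-fold, besides 3 unchanged genes. Far fewer genes were changed there than the 52.0% called in the data, and the adjusted p depends on that share. These rates therefore do not carry over to the data, where misses of small changes remain possible. By rule, values per array are given for called genes that differed by at least 1 on the log2 scale and for the gene with the brightest probe of each family, all letter-named alpha chains are named, and at most 5 called genes of each partner list, those with the largest change. Further values per array, Hspg2, Tln1, Ilk, Dag1 and the single marker genes were chosen after their values were seen. The genes and lists were chosen with earlier results of these data known. The alternatives were median scaling, an offset of 50, no or a stricter detection filter (4 arrays), arrays entered singly, a replicate block, the deposited values, all kept probes averaged, and each replicate left out.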

Additional observations from a re-analysis of the deposited data

How the results depend on the processing

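Of the 16 called integrin, laminin and nidogen genes, 13 kept their call and direction in all alternatives run, and Itga3, Itgb1 and Lamb1 did not. With 1 replicate left out, these genes gave 6 to 9 higher and 7 to 8 lower calls, against 9 and 7, all genes gave 1568 to 2943 higher and 1676 to 2963 lower calls, against 2497 and 2444, and the partner lists gave 30 to 54 calls, against 47. The lowest counts came without control replicate 1 (1568 higher, 1676 lower, and 33 partner genes) or control replicate 2 (1618, 1720 and 30). Fits with 1 replicate in a group assume that it varies like the other group. The sign of Itgb4, which did not pass, turned without control replicate 2 (log2 fold change -0.022, the lowest) and without 5-aza-dC replicate 2 (-0.01), with 0.20 the highest, without control replicate 1. The labels give both groups replicates 1 and 2 but not that a number marks a shared culture. With the replicate number as a block (a paired fit), 8 of the subunit genes were higher and 7 lower, and 2177 and 2208 of all genes. Deviations of same-numbered replicates correlated with r = -0.63 over genes, so a crossed block was added after the data were seen, with 9 higher and 8 lower. Without the detection filter 9 of 29 were lower, the added ones being Itga9 (-0.22) and Lama1 (-0.17), which no array detected. With an offset of 50 or the deposited values the counts stayed at 9 and 7, but near background the size moved. Over all alternatives the log2 fold change of Itgb7 lay between 1.15 and 2.12, that of Itga2 between 0.68 and 1.44, and that of Itga1 between -1.10 and -0.55. The counts of genes that differ by at least 1 on the log2 scale thus depend on the offset.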
